A study of Saccharomyces cerevisiae with 21 samples.

Results

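The small nucleolar RNA (snoRNA) and spliceosomal small nuclear RNA (snRNA) genes of budding yeast were represented by 63 of 9275 tested probe sets, which covered 61 genes. A probe set was taken when the platform annotation gave it exactly 1 gene symbol and that symbol began with SNR and a digit. Of the 63, 4 measured the spliceosomal RNAs SNR19 (U1), SNR14 (U4), SNR7-L (annotated as the long form of U5) and SNR6 (U6). The name of the SNR7-L set ends in _s_at, and whether it measured the long form alone was not tested. The other 59 measured snoRNAs of 57 genes, 42 of them box C/D and 17 box H/ACA probe sets. The U2 gene LSR1 appeared in 2 probe sets that also named GTS1, so these were not members and their values stand beside the members' as those of a shared set. Other SNR genes, SNR17B, SNR30 and SNR10 among them, were not analysed here.

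Total RNA of strain BY4743, a diploid of the S288C background, was hybridized as cRNA to 21 Affymetrix YG_S98 arrays, in 7 groups of 3. Every group carried the deletions of HIS3, LEU2 and URA3 that mark this strain. Control cells had been grown at 30 °C to an A600 of 0.8, pelleted and resuspended in YPD diluted 20-fold at 22 to 25 °C, and the dried cells came from that suspension, held as 15 ml in 9-cm dishes. The 50% dry cells were taken at 18 h of drying, and the dry cells after 42 h of drying followed by 72 h at 20% relative humidity. Rehydrated cells were dry cells put back into the diluted medium, pooled from 4 dishes, and sampled at 15, 45, 90 and 360 min. The labels do not say that the replicates were separate cultures, so each p-value measures only the spread between these samples. In such bulk samples, fewer cells with a given RNA and less RNA per cell cannot be told apart.

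snoRNAs are short nuclear RNAs that pair with ribosomal RNA: box C/D RNAs guide 2′-O-methylation by Nop1 and box H/ACA RNAs guide pseudouridylation by Cbf5, while a few, such as U3 and U14, are needed to cleave the ribosomal RNA precursor. In yeast they are made from their own promoters, from clusters of several RNAs in 1 transcript, or from introns of protein genes. The spliceosomal RNAs build the machine that removes introns: U1 pairs with the 5′ splice site, U2 with the branch point, U5 holds the exons, and U6, released from U4, forms the catalytic centre. Mature forms of these RNAs carry no stable poly(A) tail, and the primer used to make the target is not given in the sources used here, so whether mature, precursor or oligoadenylated forms were measured was not tested.

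Values below are deposited signals of each array, with log2 differences ± standard error (SE, 3 arrays a group) from quantile-normalized log2(signal + 17.74). A probe set was called when limma's adjusted p lay under 0.05 and the means differed 2-fold or more, and "rose" or "fell" is used only of called sets. Fold differences of dim probe sets are understated on this scale. Many snoRNA sets below were named among called sets whose compared groups did not overlap. For them the lack of overlap in that comparison was fixed by the choice and is not separate evidence. Of the 63 SNR probe sets, 61 passed the F test for a difference among the 7 groups, against 82.5% of all tested probe sets. The exceptions were SNR65, whose signals ran from 0.6 to 25.4 on the 21 arrays, and the SNR62 set whose name ends in _i_at. All 63 had their highest group mean at an end of the course. Of these, 56 peaked at 360 min of rehydration and 7 in the control, beside 24.1% and 32.6% of all tested probe sets. The lowest mean lay in dry cells for 35 of the 59 snoRNA sets, a share that was not counted over all tested sets.

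**Figure D1:**
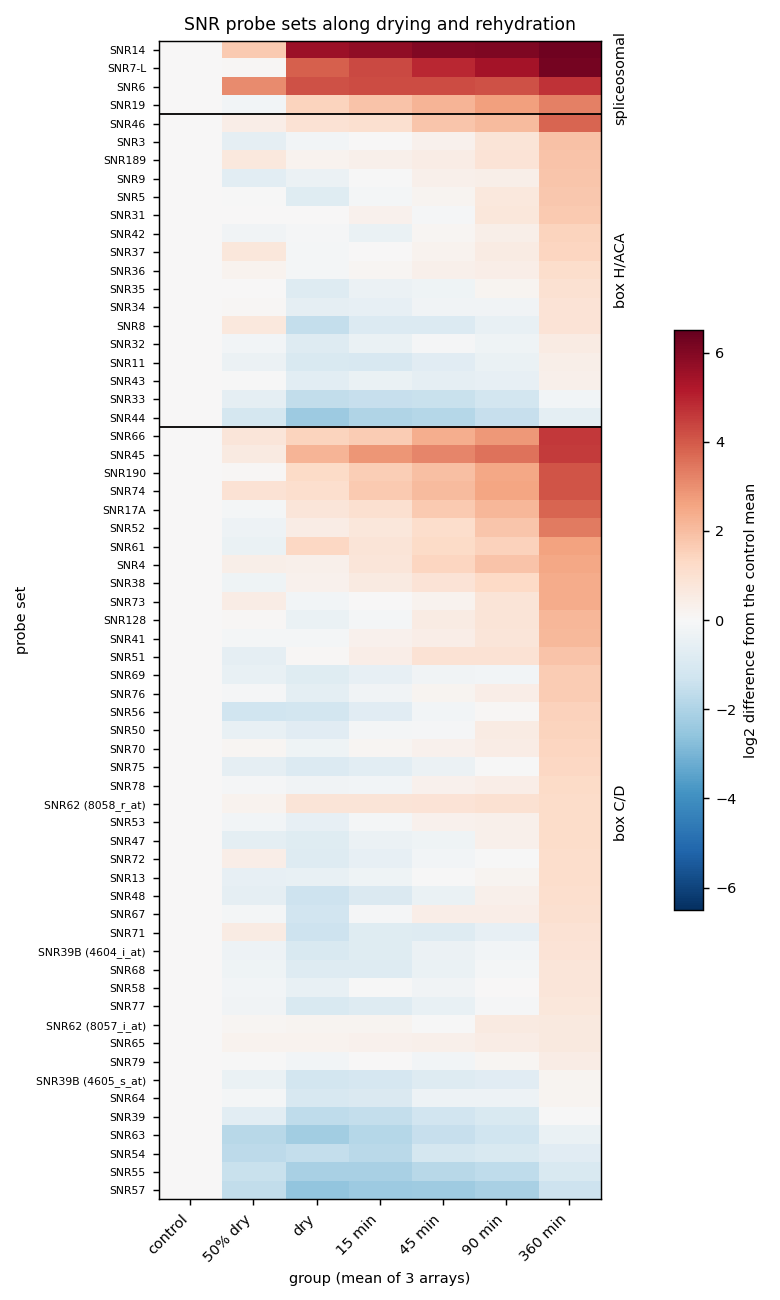
Log2 difference of each group mean (3 arrays) from the control mean for the 63 SNR probe sets, in rows by RNA class and by their difference at 360 min; red is higher and blue lower than the control. The 4 spliceosomal sets were red from the dry group on, whereas most snoRNA sets were pale or blue until 90 min and 52 of 59 were highest at 360 min.

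Signals of some control probe sets also moved along the course, both of spiked sequences and of the yeast genes ACT1, SRB4 and SPT15. The geometric mean of 9 hybridization control probe sets, bacterial and phage sequences spiked into the hybridization mix, averaged 286 on the control arrays, 305 at 50% dry, 346 in dry cells, 623 at 90 min and 1816 at 360 min. On the log2 scale this was 0.29 higher in dry than in control cells, 0.84 higher at 90 than at 15 min and 2.68 higher at 360 min than in the control. The ACT1 3′ set exceeded its 5′ set by -0.57 in the control, 0.94 in dry cells and 2.71 at 360 min (log2). In the same groups the SRB4 sets gave 1.00, 1.61 and 2.36. The SPT15 sets gave 1.48, 1.05 and 2.74. Their dry arrays gave 1.41, 1.44 and 0.29 beside 1.65, 1.31 and 1.47 in the control, so the lower dry mean rested on 1 array. The bacterial poly(A) control sets stayed at 41.7 or below on every array. Hybridization runs were inferred from the recorded hybridization times, with a gap of over 5 min taken to begin a new run. This gave 6 runs. The control, 90 min and 360 min groups had a run each, so for comparisons with them run and group cannot be told apart.

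**Figure D2:**
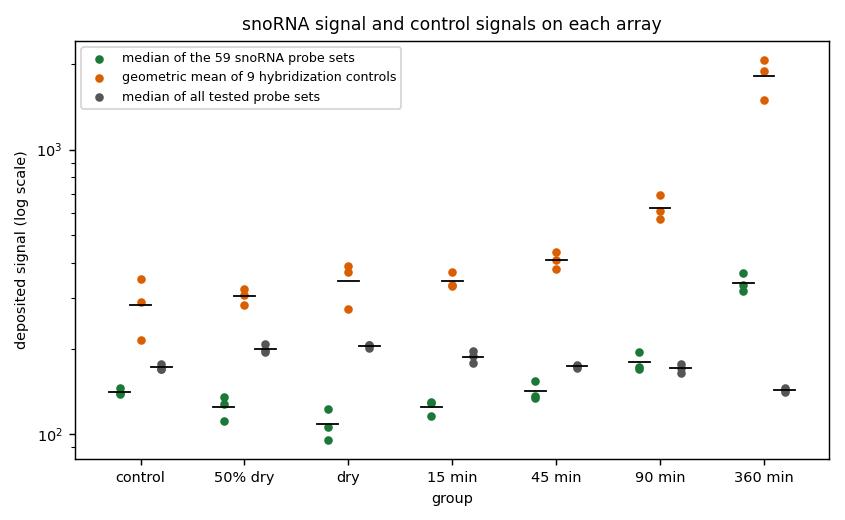
Deposited signal on each of the 21 arrays (log axis) as the median of the 59 snoRNA probe sets (green), the geometric mean of 9 hybridization controls (orange) and the median of all tested sets (grey); bars are group means. The snoRNA median was between 95.9 and 123 in dry cells and between 319 and 367 at 360 min, while the hybridization controls reached 1496 to 2066 at 360 min and the median of all sets stayed between 141 and 207.

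All 4 spliceosomal RNAs were higher in dry than in control cells, by 1.43 to 5.58 on the log2 scale, and all 4 remained high during rehydration. U6 and U4 were already called higher at 50% dry, whereas U5 and U1 were not called there and rose in the step from 50% dry to dry. Against a background of 17.5% of all tested probe sets called higher in dry than in control cells, 4 of 4 were called.

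SNR6, the U6 RNA, had signals of 178, 178 and 165 on the control arrays, 1801, 1621 and 1466 at 50% dry, and 2966, 3001 and 3251 in dry cells. The 3 groups did not overlap, and the greater part of the rise had taken place by 50% dry. The difference was 3.05 ± 0.11 at 50% dry against control (adjusted p = 1.57e-14) and a further 1.10 ± 0.11 to dry (adjusted p = 2.19e-07). The second step was under 2-fold, and so not called, with the deposited scaling (0.91), with median-centred arrays (0.88) and with scaling to the hybridization controls (0.75). From 15 to 90 min the 9 arrays lay between 3201 and 4458, and at 360 min they reached 10452, 7293 and 8865.

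SNR14, the U4 RNA, was at 66.8, 59.4 and 61.6 in the control, 263, 245 and 280 at 50% dry, and 2928, 3397 and 3613 in dry cells. No array of any of these groups overlapped with another group. It rose by 1.68 ± 0.08 to 50% dry (adjusted p = 8.59e-13) and by 3.90 ± 0.08 from there to dry (adjusted p = 6.49e-17). Rehydrated cells had 3713, 4332 and 3898 at 15 min, 5604, 5348 and 5274 at 45 min, 6639, 5057 and 5383 at 90 min, and 14517, 11257 and 14736 at 360 min. The dry-to-control difference of 5.58 ± 0.08 was the largest among the 63 members.

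SNR7-L, the U5 RNA that aligns the exons, measured 32.3, 24.4 and 25.8 in the control and 36.3, 33.4 and 31.9 at 50% dry. In dry cells it measured 628, 724 and 738, far above both earlier groups. The difference of dry from 50% dry was 3.77 ± 0.11 (adjusted p = 1.91e-14), while 50% dry and control differed by 0.09 ± 0.11 (adjusted p = 0.505). It was at 946, 1045 and 764 at 15 min, 1857, 1903 and 1895 at 90 min (a rise of 1.08 ± 0.11, adjusted p = 3.43e-06), and 4142, 3750 and 4601 at 360 min. Without the third 15 min array the rise to 90 min was 0.96, just under 2-fold.

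SNR19, the U1 RNA, gave 159, 155 and 118 in the control, 160, 139 and 143 at 50% dry, and 422, 488 and 515 in dry cells. The control and 50% dry arrays overlapped, and the dry arrays lay above all of them. It rose by 1.60 ± 0.12 from 50% dry to dry (adjusted p = 9.38e-09). By 360 min the arrays read 1508, 1523 and 1261.

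Of the sets shared by LSR1 and GTS1, the first gave 3.1, 2.2 and 2.9 in the control, 9.6, 15.5 and 45.3 at 50% dry, 103, 86.3 and 98.6 in dry cells, and 1893, 1483 and 1509 at 360 min. The second set gave 15.4, 23.3 and 9.6 in the control and 16.5, 39.5 and 17 in dry cells, which overlapped, and reached 185, 235 and 283 at 360 min. The log2 differences of dry from control were 2.30 and 0.16, so the sets disagreed on that step, and U2 cannot be told apart from GTS1 in either.

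**Figure D3:**
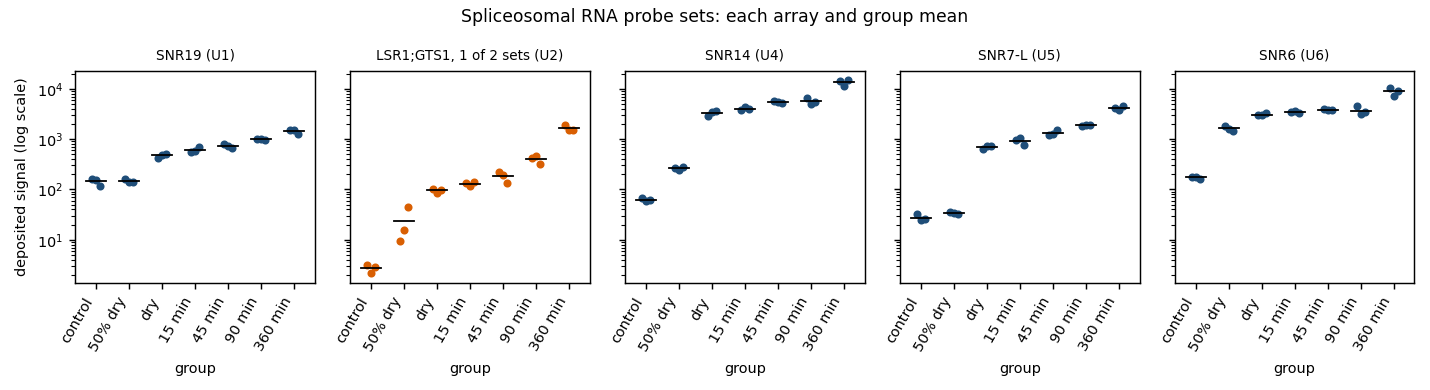
Deposited signals (log axis) of the 4 spliceosomal probe sets and of the first set shared by LSR1 and GTS1 (orange), with 1 point per array and a bar at each group mean. SNR6 and SNR14 had left the control level by 50% dry, whereas SNR7-L and SNR19 left it in dry cells.

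In the hybridization run that held 1 dry and all 3 50% dry arrays, the dry array was higher by 3.70 for SNR14, 3.62 for SNR7-L, 1.42 for SNR19 and 1.05 for SNR6. The dry-to-control calls of all 4 held when the arrays were scaled to the hybridization controls instead, where 15.6% of all tested sets were called higher and 20.6% lower. At 360 min against control the 4 differed by 3.29 to 6.34, and with that scaling 3 of 4 were called higher, against 1.64% of all tested sets. No spliceosomal set was called at 360 against 90 min after quantile normalization, but 3 of 4 were called higher with the deposited scaling (background 4.15% higher and 5.62% lower), where their median difference was 1.19 in place of 0.59.

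Other stable RNAs gave the following values in the step from 50% dry to dry. RPR1, the RNA of ribonuclease P, had means of 377, 900 and 3481 in control, 50% dry and dry cells, and rose by 2.22 in that step. The sets of TLC1, the telomerase RNA, differed by 1.5 (called) and 0.82 (not called) in the step but by -1.31 and -1.97 between dry and control, where both fell. The set shared by SCR1 and NTG1 differed by 0.50 and was not called (adjusted p = 0.151). Among probe sets of ribosomal RNA (RDN) genes, 8 of 13 were called higher and 0 lower, with a median of 1.30 (3.06% of all tested sets were called higher and 5.05% lower). Several of the 13 carry the same symbol, RDN37-1, and are not separate genes. Among these, a dim set went from a mean of 4.7 to 37.2, a bright one rose by 2.08, and another bright one differed by -0.16 (not called). Among tRNA probe sets, 72 of 92 were called higher and 0 lower, with a median of 1.78, after 43 of 92 had been called lower at 50% dry.

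During drying the snoRNAs as a class did not follow the spliceosomal RNAs. At 50% dry against control, 0 of 59 snoRNA sets were called higher and 6 lower, against 13.1% and 13.9% of all tested sets. At dry against 50% dry, 3 were called higher and 6 lower (background 3.06% and 5.05%). Over the whole drying course, 5 were called higher and 14 lower in dry cells (background 17.5% in each direction). Their median difference between dry and control was -0.54, beside 0.01 over all tested sets, and it was -0.52 for the box C/D and -0.59 for the box H/ACA sets. These comparisons share the control or the dry arrays, so their counts are not separate pieces of evidence.

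Among the snoRNA sets that fell early were SNR57, SNR55 and SNR54, box C/D methylation guides of the small-subunit ribosomal RNA. At 50% dry SNR56 (-1.30), SNR44 (-1.13) and SNR63 fell too. Whether guides of the small-subunit RNA fell more often than other guides was not tested. SNR57 measured 150, 185 and 193 in the control, 59.1, 50.0 and 53.7 at 50% dry, and 16.4, 18.1 and 20.3 in dry cells, with no overlap between groups. It fell by 1.59 on the log2 scale at 50% dry (SE 0.26, adjusted p = 3.89e-05) and was 2.57 lower in dry than in control cells, at -2.57 ± 0.26 (adjusted p = 6.74e-08). SNR55 measured 499, 480 and 483 in the control, 233, 198 and 140 at 50% dry and 95.9, 138 and 108 in dry cells. All dried arrays lay below the control, with 50% dry and dry nearly touching at 140 and 138, and the difference of dry from control was -2.10 ± 0.18 (adjusted p = 4.90e-09).

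SNR63, a guide for methylation of the large-subunit ribosomal RNA, gave 311, 217 and 271 in the control, 59.1, 78.5 and 94.3 at 50% dry, and 42.9, 43.5 and 60.4 in dry cells. The control arrays lay above all dried arrays. The largest fall among the members at 50% dry was that of SNR63, at -1.78 ± 0.20 (adjusted p = 2.48e-07), and in dry cells the difference from the control was -2.24 ± 0.20 (adjusted p = 7.50e-09).

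A second set of snoRNAs fell only after 50% dry. SNR8, a box H/ACA pseudouridylation guide, measured 1073, 1063 and 922 in the control and 1690, 1525 and 1501 at 50% dry, and then 385, 313 and 385 in dry cells. Every dry array was below every array of the other 2 groups, and the step was -2.23 ± 0.17 (adjusted p = 9.79e-09). SNR71, a box C/D guide for the large-subunit ribosomal RNA, went from 639, 601 and 592 at 50% dry to 180, 194 and 143 in dry cells, a step of -1.84 ± 0.15 (adjusted p = 1.81e-08). Its control arrays read 419, 343 and 420, so part of that step followed a difference of 0.52 ± 0.15 at 50% dry (not called). Dry against control differed by -1.32 ± 0.15. SNR72, a box C/D guide encoded in the same cluster as SNR73 to SNR78, went from 425, 412 and 360 to 160.9, 148 and 183, at -1.28 ± 0.21 (adjusted p = 0.000103). With 50% of the median added the step was -0.99 and not called. Its control arrays read 377, 186 and 250.5, and its dry-to-control difference of -0.85 ± 0.21 was not called. The rule that named SNR71 and SNR72 required that their 50% dry and dry arrays did not overlap. The single dry array hybridized with the 50% dry arrays gave -2.14 for SNR8.

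Few snoRNAs rose on drying. SNR45, a box C/D RNA that guides acetylation of the small-subunit ribosomal RNA, measured 70.1, 91.8 and 56.9 in the control, 141, 122 and 146 at 50% dry, and 443, 455 and 417 in dry cells. The 3 groups did not overlap, and the dry-to-control difference of 2.19 ± 0.15 (adjusted p = 2.61e-10) was the largest among the snoRNAs. SNR66, a box C/D guide for the large-subunit ribosomal RNA, measured 56.0, 44.9 and 41.3 in the control and 131, 199 and 209 in dry cells, but 148, 105 and 68.9 at 50% dry, between and overlapping with the dry arrays. Its dry-to-control difference was 1.43 ± 0.21 (adjusted p = 8.04e-06).

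SNR61, a further box C/D guide, measured 678, 366 and 971 in the control, 550, 414 and 483 at 50% dry, and 1062, 1602 and 2338 in dry cells. Its replicate arrays spread widely, with the largest SD among the members in dry cells (0.65 on the log2 scale), although the dry arrays lay above the others. The dry-to-control difference was 1.37 ± 0.41 (adjusted p = 0.00722), and the call was lost without the third dry array. Its rise of 1.78 ± 0.41 from 50% dry (adjusted p = 0.00216) was not called with the hybridization run as a block, where the difference was 1.13.

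U3 and U14, which are needed for cleavage of the ribosomal RNA precursor, and SNR190, a neighbour of U14, differed among themselves. SNR17A encodes U3, which directs the early cleavages toward the small-subunit RNA, and a near-identical second gene, SNR17B, cannot be told apart from it by these signals. It measured 89.9, 98.4 and 85.3 in the control, 88.7, 110 and 88.2 at 50% dry, and 175, 181 and 238 in dry cells. The dry arrays lay above both other groups, but the difference from the control, 0.78 ± 0.12 (adjusted p = 1.98e-05), stayed under 2-fold. SNR128, the U14 RNA, gave 373, 295 and 385 in the control and 297, 320 and 279 in dry cells, which overlapped in deposited signal, at -0.43 ± 0.13 (adjusted p = 0.00893). SNR190, encoded in 1 transcript with SNR128, was near the bottom of the scale at 4.0, 1.3 and 1.2 in the control and 5.5, 3.2 and 1.6 at 50% dry, and rose to 32.0, 29.0 and 39 in dry cells (1.25 ± 0.19 against control, adjusted p = 8.73e-06).

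Neighbouring snoRNA genes did not always have differences of the same sign. In the cluster of SNR55, SNR57 and SNR61, the first pair differed by -2.10 and -2.57 between dry and control, and SNR61 by 1.37. In the SNR72 to SNR78 cluster of 7 box C/D genes, 1 was called higher in dry than in control cells and 0 lower. That one was SNR74, at 34.2, 24.1 and 36.8 in the control and 107, 88.9 and 106 in dry cells, a difference of 1.11 ± 0.20 (adjusted p = 5.89e-05). The cluster's median was -0.63.

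The first 15 min of rehydration brought 1 call among the 59 snoRNA sets and 0 of 4 among the spliceosomal sets, against 0.0539% of all tested sets called higher and 0.0647% lower. At this point 54 of 59 snoRNA sets lay above their dry mean, with a median of 0.24 beside 0.01 over all tested sets. The called set was SNR67, a box C/D guide for the large-subunit ribosomal RNA. It measured 607, 1201 and 1261 in dry cells and 2102, 2166 and 2116 at 15 min, a difference of 1.20 ± 0.23 (adjusted p = 0.0191). The first dry array was the lowest of the 3: without it the difference was 0.83 and was not called, and the call was also lost when any 15 min array was left out and with the run as a block. Its fall from 50% dry to dry, -1.12 ± 0.23 (adjusted p = 0.000706), was not called without that dry array (-0.76) or without the first 50% dry array (-0.95).

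By 90 min, 6 of 59 snoRNA sets and 1 of 4 spliceosomal sets were called higher than at 15 min and none of the 63 lower, against 1.12% and 0.981% of all tested sets, and 58 of 59 snoRNA sets had a difference above 0 (median 0.57). SNR48, a box C/D guide for the large-subunit ribosomal RNA, went from 81.9, 88.4 and 86.3 to 332, 213 and 160.9, at 1.28 ± 0.19 (adjusted p = 0.000156), a call that was lost without the first 90 min array. SNR66 went from 195, 154 and 232 to 480, 502 and 338 (1.20 ± 0.21, adjusted p = 0.000595). U3, as SNR17A, went from 210, 218 and 250 to 483, 486 and 450 (1.11 ± 0.12, adjusted p = 8.48e-06). These 3 were named among called sets whose groups did not overlap, so that lack of overlap is not separate evidence. The 7 calls among the 63 became 4 without the third 15 min array and 0 when arrays were scaled to the hybridization controls, which were themselves 0.84 higher on the log2 scale at 90 min. With that scaling 0.0323% of all tested sets were called higher and 27% lower.

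From 90 to 360 min, 26 of 59 snoRNA sets were called higher and none lower, against 3.82% and 3.07% of all tested sets. All 59 differences lay above 0, with a median of 0.93 beside -0.01 over all tested sets. Box C/D and box H/ACA sets took part alike in the counts, with 18 of 42 and 8 of 17 called. The difference between the classes was not tested.

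SNR69, a box C/D guide for the large-subunit ribosomal RNA, went from 169, 152 and 146 at 90 min to 946, 336 and 440 at 360 min. At 360 min 1 array stood well above the other 2, and the difference was 1.85 ± 0.24 (adjusted p = 7.99e-06). SNR66 went from 480, 502 and 338 to 1125, 1438 and 1517 (1.75 ± 0.21, adjusted p = 4.58e-06). SNR46, a box H/ACA guide for the large-subunit ribosomal RNA, went from 366, 391 and 263 to 1103, 1293 and 687 (1.70 ± 0.20, adjusted p = 4.33e-06). SNR17A reached 1243, 1345 and 1263, SNR128 reached 1695, 1323 and 1571, and SNR190 reached 193, 252 and 343, and each of these rose.

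These rises are relative to the other probe sets of the same array. When arrays were scaled to the hybridization controls, 0 of the 63 SNR sets were called in either direction at 360 against 90 min, against 0.0863% of all tested sets called higher and 56.2% lower, and the snoRNA median became -0.39 while the median of all tested sets became -1.16. The part of array RNA load in these levels was not tested.

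At 360 min against control, 37 of 59 snoRNA sets were called higher and 2 lower, and all 4 spliceosomal sets higher, against 19.7% and 21.4% of all tested sets. The snoRNA median was 1.19 beside 0.00 over all tested sets, and 52 of 59 lay above 0. SNR66 (1125 to 1517 on the 360 min arrays, 41.3 to 56.0 in the control) differed by 4.59 ± 0.21 (adjusted p = 6.96e-13). SNR45 reached 1648, 2201 and 2520 from its control level near 70, at 4.56 ± 0.15 (adjusted p = 8.84e-15). SNR190 differed by 4.09 ± 0.19 (adjusted p = 5.77e-13). The lack of overlap of these 3 with the control was part of the rule that named them.

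The 2 snoRNA sets called lower were neighbours. SNR57 stood at 47.8, 57.5 and 73.3 at 360 min, below every control array and above every dry array (-1.32 ± 0.26 against control, adjusted p = 0.000192). SNR55 stood at 184, 152 and 225, also below every control array (-1.01 ± 0.18, adjusted p = 5.61e-05), and its call was lost without the second 360 min array (-0.86). With arrays scaled to the hybridization controls 6 of 59 snoRNA sets were called higher and 34 lower at 360 min than in the control, against 1.64% and 75.3% of all tested sets. Their median was then -1.20, where that of all tested sets was -2.04, so the direction of most snoRNA differences depended on the scaling.

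**Figure D4:**
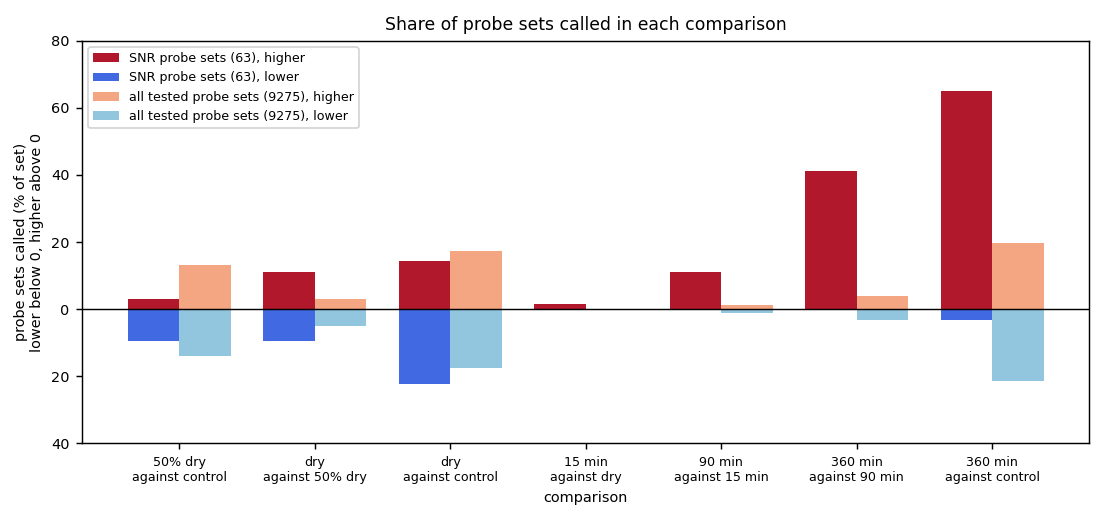
Share of the 63 SNR probe sets (dark bars) and of all 9275 tested sets (light bars) called higher (above 0) or lower (below 0) in each of the 7 comparisons, after quantile normalization. The SNR share exceeded the background on the high side at dry against 50% dry and at 15, 90 and 360 min of rehydration. On the low side it exceeded the background at dry against 50% dry (9.52% against 5.05%) and dry against control (22.2% against 17.5%). It lay under the background on both sides at 50% dry against control. The high calls at dry against 50% dry were of 4 spliceosomal and 3 snoRNA sets.

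In 4 cases an intronic snoRNA could be set beside its host gene, since RefSeq places it inside the host on the same strand. Host sets fell in dry cells in all 4. SNR38, within the elongation factor gene TEF4, measured 203, 161.3 and 146 in the control, 219, 248 and 268 in dry cells and 821, 830 and 961 at 360 min. Its difference from the control was 0.27 ± 0.12 in dry cells (adjusted p = 0.0660) and 2.42 ± 0.12 at 360 min (adjusted p = 2.95e-12). The 2 TEF4 sets, with control means of 2406 and 3375, differed by -4.61 ± 0.19 and -3.38 ± 0.18 in dry cells and by -2.74 ± 0.19 and -1.60 ± 0.18 at 360 min. At 360 min the snoRNA was thus above its control level and its host below, although SNR38 differed by -0.30 when arrays were scaled to the hybridization controls.

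SNR44, a box H/ACA guide within the ribosomal protein gene RPS22B, measured 1231, 908 and 1182 in the control, 497, 523 and 451 at 50% dry, 204, 222 and 213 in dry cells and 525, 514 and 558 at 360 min. None of the dried groups overlapped with the control, and the dry-to-control difference was -2.36 ± 0.11 (adjusted p = 3.62e-13). The 3 RPS22B sets differed by -3.27, -5.89 and -3.29 in the same comparison, and the SNR44 difference at 360 min was -0.66 ± 0.11 against -3.62, -2.79 and -1.49 for the host.

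SNR54, within IMD4, which encodes an enzyme of guanine nucleotide synthesis, was dim, at 76.9, 81.9 and 62.7 in the control and 12.6, 4.3 and 18.8 at 50% dry. It fell by 1.68 on the log2 scale (SE 0.22, adjusted p = 2.01e-06). In dry cells it read 10.2, 21.7 and 16.6 (-1.56 ± 0.22), beside -4.57 and -4.58 for the 2 IMD4 sets.

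SNR39, within the ribosomal protein gene RPL7A, measured 192, 163 and 162 in the control, 48.7, 56.8 and 43.4 in dry cells and 167, 136 and 118 at 360 min, differing by -1.65 ± 0.13 in dry cells (adjusted p = 1.56e-09) and -0.04 ± 0.13 at 360 min. Of the 3 RPL7A sets, 2 differed by -3.17 and -3.82 in dry cells and by -2.67 and -2.90 at 360 min, while the third and dimmest gave -1.0 and -0.01. The RPL7A sets thus disagreed with each other, and sets whose name ends in _i_at or _f_at can match related genes. The difference between each snoRNA and its host was not tested.

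**Figure D5:**
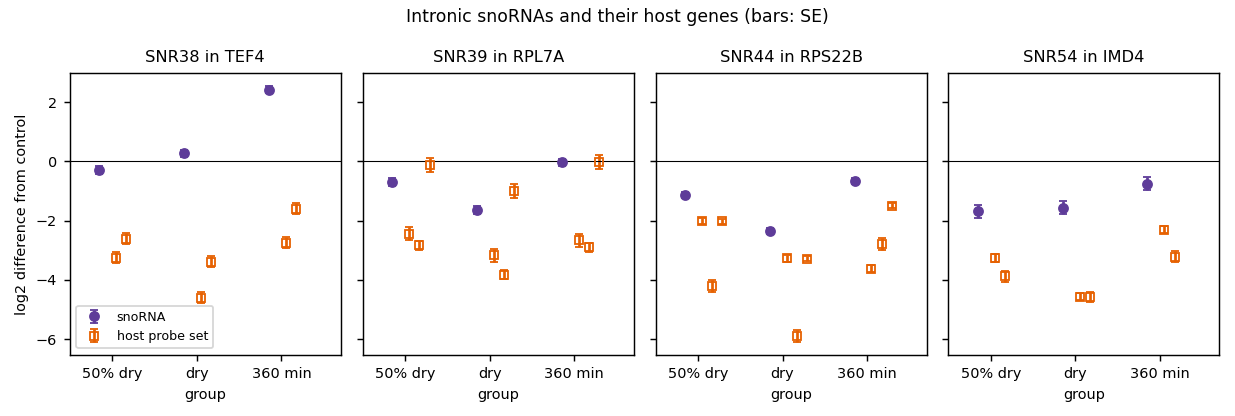
Log2 difference from the control (± SE) at 50% dry, dry and 360 min of 4 intronic snoRNAs (filled circles) and of every probe set of their host genes (open squares). Except for 1 RPL7A set, the host sets lay further below 0 than the snoRNA, and SNR38 was above 0 at 360 min.

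Where a gene had 2 probe sets, both were kept. The SNR39B sets, with names ending in _i_at and _s_at, gave -0.99 ± 0.15 and -1.21 ± 0.18 in dry against control and 0.88 ± 0.15 and 0.17 ± 0.18 at 360 min against control. The SNR62 sets, ending in _i_at and _r_at, gave 0.64 ± 0.42 and 1.22 ± 0.31 at 360 min, of which only the second was called. The first ran at 20.6, 89.2 and 118 on the 360 min arrays, so its replicates spanned the range of all other groups.

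The core proteins of the snoRNA particles were measured on the same arrays. All 4 box C/D core genes, NOP1 (the methyltransferase), NOP56, NOP58 and SNU13, were called lower in dry than in control cells, with a median of -3.34, and all 4 were lower at 360 min (median -2.30), where 17.5% and 21.4% of all tested sets were called lower. Of the 3 measured box H/ACA core genes, CBF5 (the pseudouridine synthase), GAR1 and NHP2, all 3 were called lower in dry cells (median -2.45), and CBF5 (-1.44) and GAR1 (-1.91) at 360 min. From 90 to 360 min NOP56 (1.20), NOP58 (1.75), CBF5 (1.00) and GAR1 (1.28) rose. These were 2 of the 4 box C/D and 2 of the 3 measured box H/ACA core genes, beside 3.82% of all tested sets. Whether these rises and those of the snoRNA sets were linked was not tested. Among 10 assembly factors of these particles, RSA1 (1.68) was called higher in the dry group and the helicase RVB1 (-1.18) lower, both against the control, below the share of all tested sets (17.5% in each direction).

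Genes for protein partners of the spliceosomal RNAs were measured too. Of the 14 Sm and Lsm genes, whose proteins form rings on these RNAs, 1 was called higher in dry than in control cells, SMX3 (1.43), and 0 lower, with a median of 0.00 (17.5% of all tested sets were called in each direction). Of 23 genes for proteins of single spliceosomal particles, 6 were higher and 1 lower against that background, with a median of 0.65. The 6 were MUD1 and YHC1 of the U1 particle (1.42 and 1.63), LEA1 of U2 (1.04), PRP3 and PRP4 of the U4 and U6 particle (1.87 and 1.49) and PRP24 of U6 (1.22), and the lower one was the U1 protein NAM8 (-1.41).

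Of 19 measured genes for 3′ end formation, oligoadenylation and trimming of these RNAs, 6 were called higher in the dry group and 2 lower, against the control, with a median of 0.50 (background 17.5% in each direction). Among them were NRD1 (1.27) and the helicase SEN1 (1.88), which end snoRNA transcripts, and the poly(A) polymerase TRF5 (1.12), which adds short tails to nuclear RNA. AIR2, a partner of such polymerases (1.28), and the exonuclease REX3 (1.95) rose as well, as did LRP1 (1.13), a cofactor of the nuclear exosome. LHP1, the yeast La protein that binds the ends of new RNA polymerase III transcripts, among them U6, fell by 1.57 on the log2 scale, and the exonuclease REX2 by 1.51. At 360 min against control the counts were 3 higher and 2 lower, against 19.7% and 21.4% of all tested sets.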

How the data were processed

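Total RNA of 21 samples was measured on 1-colour arrays. The authors deposited linear signal intensity per probe set. Per the labels' protocols, images were read with the GeneChip Expression Analysis Software, probe sets were processed with a Wilcoxon signed rank test and combined by a linear mixed model. The target labelling, software version, scaling and genome build are not given in the sources used here. Array medians ran from 141 to 207 (range 37.0% of their mean), so values were quantile normalized as log2(intensity + 17.74), the addition being 10% of the median signal. 

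Group means over all 21 arrays were fitted with limma 3.58.1 in R 4.3.3 (moderated variances with a trend, 14 residual degrees of freedom), and p-values were Benjamini-Hochberg adjusted over 9275 probe sets without the 60 control sets. The procedure was tested on simulated data. Summaries used Python 3.11.15 and pandas 2.3.3. Gene names and neighbours came from the platform annotation and RefSeq, and no sequence was used.

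The members, lists and comparisons were chosen with earlier results of these data known. Named were the spliceosomal sets, snoRNAs for precursor cleavage with SNR190, intronic snoRNAs with hosts, and genes with several sets. Also named, per comparison, were the 3 largest rises and falls among called snoRNA sets whose groups did not overlap. For these the lack of overlap was fixed by the choice. SNR74 was named after its values were seen. Alternatives covered the added value, scaling, trend, fold minimum, dim sets, replicate number, run, and single arrays. Replicate numbers did not pair the samples: correlations of same-numbered deviations ran from -0.24 to 0.15, and 2 of 21 were over 0.1. Precision is limited by the 3 arrays of a group.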

Additional observations from a re-analysis of the deposited data

How the results depend on the processing

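Counts are of the 63 SNR probe sets called, which were 8 at 50% dry against control, 13 at dry against 50% dry, 23 at dry against control, 1 at 15 min against dry, 7 at 90 against 15 min, 26 at 360 against 90 min and 43 at 360 min against control. With 50% of the median signal added they were 5, 14, 2 and 17 at 50% dry against control, dry against control, 90 against 15 min and 360 against 90 min, and with 1% added 12 at 90 against 15 min. Without the fold minimum they were 26, 36, 47, 4, 39 and 54 in the first 6 comparisons. Of all tested sets, 2631 were then called higher and 2691 lower, 1723 and 1535, 3098 and 2871, and 32 and 40 in the first 4. A large part of all sets thus passed in the drying comparisons, and these counts describe the setting more than the members. Median-centred arrays gave 40 at 360 against 90 min, where the share of all tested sets with that scaling is not given here. At 15 min against dry the count was 0 with only the arrays compared, with the run as a block, with the 4 groups that share runs and no block, and with scaling to the hybridization controls. The last 2, and leaving out the 360 min arrays, were chosen after seeing the data.

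Scaled to the hybridization controls, counts were 0 at 90 against 15 min and at 360 against 90 min, where 27% and 56.2% of all tested sets were called lower. At 360 min against control 43 were called, 9 higher and 34 lower, against 1.64% and 75.3% of all tested sets. With that scaling the 360 against 90 min difference turned to -0.57 for SNR38, -0.27 for SNR128, -0.0044 for SNR190, -0.19 for SNR71, -0.44 for SNR45, -0.0897 for SNR17A, -0.25 for SNR8 and -0.51 for SNR72. The 360 min against control difference turned to -0.30 for SNR38, -1.08 for SNR69, -0.54 for SNR128, -1.83 for SNR71, -1.61 for SNR48, -0.97 for SNR67, -1.95 for SNR8 and -1.58 for SNR72. The cause was not tested.

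Leaving out 1 array at a time gave 8 to 9, 12 to 15, 22 to 28, 0 to 1, 4 to 8, 21 to 33 and 40 to 45 calls in the 7 comparisons, and 58 to 61 by the F test. With the replicate number as a block the counts were unchanged at 8, 13, 23, 1, 7, 26 and 43, and 61 by the F test, and no named call changed.

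Of 73 calls among the 24 named snoRNA and spliceosomal sets, 44 held under every alternative other than the hybridization control scaling. Counted separately, 20 were lost with 50% of the median added, 14 without 1 array and 6 with the deposited scaling. With scaling to the hybridization controls, 28 of the 73 were lost or reversed. Of the members, 8 were among the dimmest 20% of sets, SNR54 and SNR65 included, where the signal limits what can be seen.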
